A study of Mus musculus with 11 samples.

Results

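The mitosis genes are 38 genes whose products carry a cell from the end of G2 through chromosome segregation to cytokinesis, chosen by symbol from the 43346 genes of the deposited table. They cover the kinases and cyclins of mitotic entry, the spindle checkpoint and anaphase-promoting machinery, the centromere and chromosomal passenger complex, spindle motors, the central spindle, and chromosome structure with 1 transcription factor. Their levels were read from RNA sequencing of whole livers of FVB/NJ mice in which expression of MET, a receptor tyrosine kinase, together with β-catenin, the effector of Wnt signalling, had induced hepatocellular carcinoma (HCC). Every library carries the treatment label anti-PD-1, an antibody against the inhibitory T cell receptor PD-1. By response label there were 6 responder libraries, 4 non-responder libraries and 1 library labelled non treatment, called the no-treatment library here although its treatment label also names the antibody. The series belongs to a study on targeting β-catenin and its effect on the response to that antibody, and holds the anti-PD-1 data only. The labels give neither age nor sex and do not tie libraries to individual mice, so a p-value here reflects the spread of libraries, which may be technical. How much of the RNA of a library came from tumour and how much from adjacent tissue is not stated either.

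Most of these genes are switched on together late in the cell cycle. In resting cells the DREAM complex, which contains the MuvB core, holds their promoters silent. In G2 the core passes to B-MYB (Mybl2) and FOXM1 (Foxm1), which activate the same promoters through letters known as the cell cycle genes homology region and through CCAAT boxes bound by NF-Y. Adult hepatocytes rarely divide, so RNA of mitosis genes in liver is commonly read as a mark of dividing hepatocytes, tumour cells or infiltrating cells.

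RefSeq promoters (build GRCm38.p6) were found for 32 of the 38 genes, as 34 promoters in all. The 250 bases before each start site were searched on both strands for TTTGAA and TTTAAA, which are homology region letters, and for CCAAT. The last was in 29 of 34 mitosis gene promoters (85.29%) and in 33.85% of all 32851 promoters. CCAAT occurred 2 or more times in 55.88% of the mitosis gene promoters, against 10.09% of all. TTTGAA or TTTAAA was in 17 of the 34 promoters, against 25.17% of all, and both kinds of motif were together in 44.12% against 8.78%. Of the 64 CCAAT matches 44 lay within 100 bases of the start, as did 13 of the 23 matches to TTTGAA or TTTAAA. Ect2 and Prc1 each have overlapping promoters, so matches in their shared bases entered these counts and shares more than once. A match is a description of letters and not a bound site. The 150 bases before the start are shown for 3 genes to let these letters be seen, with every match on either strand in capitals (ATTGG and TTCAAA are CCAAT and TTTGAA read on the other strand). Plk1 (chr7:122159285-122159434, plus strand) has a TTTAAA pair and a CCAAT, Ccnb2 (chr9:70421555-70421704, minus strand) has CCAAT 3 times, and Top2a (chr11:99024190-99024339, minus strand) has CCAAT on both strands with TTTGAA close to the start.
Plk1: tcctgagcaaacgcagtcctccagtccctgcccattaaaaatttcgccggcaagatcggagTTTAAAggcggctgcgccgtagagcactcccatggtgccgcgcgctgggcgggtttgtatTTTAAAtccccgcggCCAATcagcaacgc
Ccnb2: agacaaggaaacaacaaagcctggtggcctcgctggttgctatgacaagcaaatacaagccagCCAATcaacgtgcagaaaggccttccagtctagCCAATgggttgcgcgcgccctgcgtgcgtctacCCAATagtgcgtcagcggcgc
Top2a: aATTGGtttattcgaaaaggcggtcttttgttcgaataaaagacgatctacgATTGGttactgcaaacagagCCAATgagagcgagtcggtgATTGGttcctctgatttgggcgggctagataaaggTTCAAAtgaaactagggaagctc

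Levels are in CPM, the usual scaling of a count to library size, here with TMM factors, and were low for all 38 genes. Total gene counts ran from 17876515 in responder replicate 4 to 49884800 in the no-treatment library, and the 38 genes together made up 0.00438% to 0.0312% of a library. Of 380 pairs of a gene and a treated library 17 held fewer than 10 reads, 8 of them in responder replicate 1, 8 in replicate 5 and 1 in replicate 2. Non-responder replicate 1 stood apart in how its reads lay along genes, with a log2 3′ coverage index (median density of later over earlier exons, 6053 genes) of 1.17 against -0.17 to 0.05 in the other libraries. Hepatocyte markers were abundant in every library, at a summed 82450 to 98500 CPM in responders and 109800 to 125400 in non-responders.

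All 38 mitosis genes had a lower fitted level in responders than in non-responders, and 11 of them passed the test. The called genes were Mybl1, Plk1, Cdca3, Ccna2, Kif22, Aurka, Hmmr, Kif20a, Cdca8, Kif4 and Cenpa, with log2 fold changes between -2.37 and -0.77. None was called higher and 27 were not called, by edgeR's quasi-likelihood test with a Benjamini-Hochberg adjusted p under 0.05 over 17610 genes. Over all tested genes 5.82% were called lower and 4.11% higher. The median log2 fold change of the 38 genes was -1.24, against -0.02 over all tested genes, of which 51.9% lay below 0. In 32 of the 38 the log2 fold change was below -1, and 29 had an unadjusted p under 0.05. The shares of all tested genes past these cuts were not counted. Genes that were not called moved by about as much as called ones (median -1.19 against -1.27) and had a larger median SE (0.52 against 0.31). The plot of fold changes by role shows the same: most grey bars are as far from 0 as the red ones and longer.

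**Figure D1:**
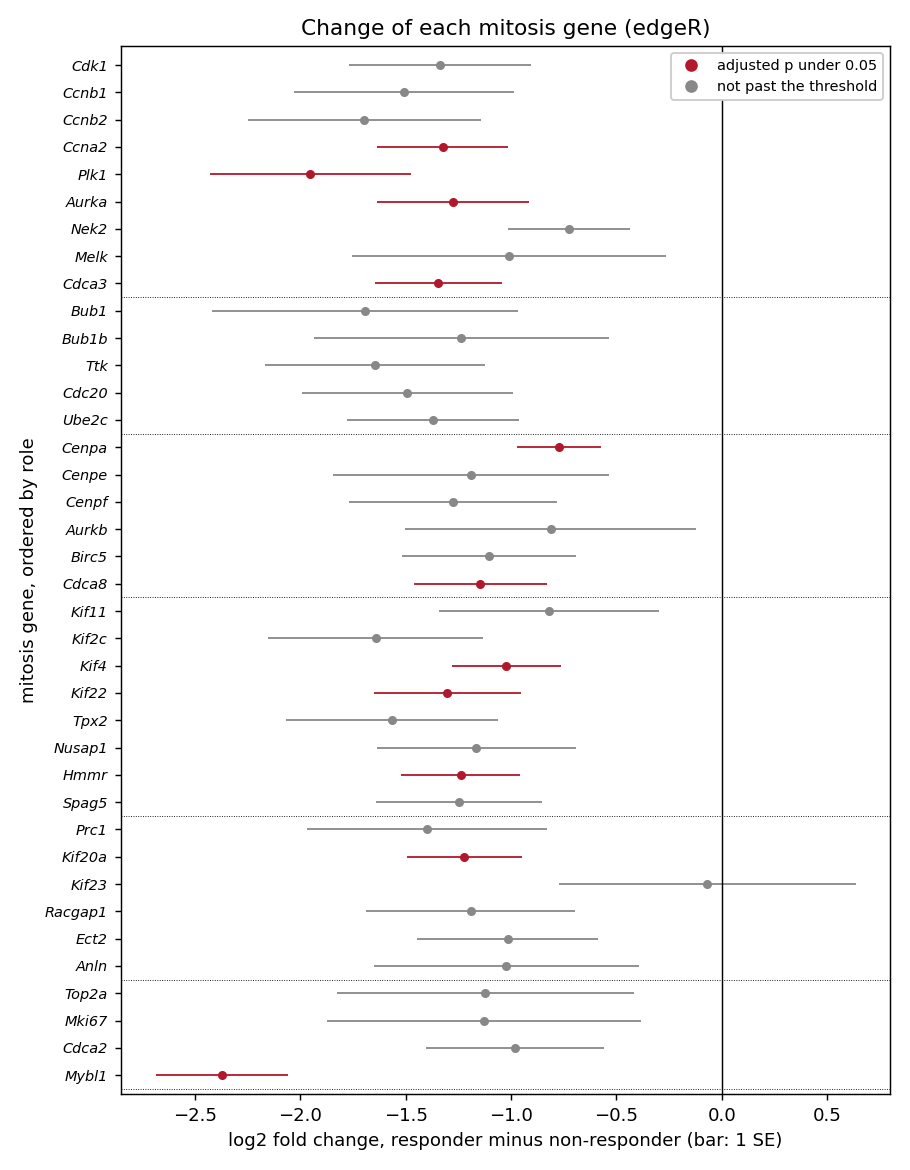
Log2 fold change of responder over non-responder (x axis, bar of 1 SE) for the 38 mitosis genes (y axis, ordered by role with dotted lines between roles), from edgeR over 6 and 4 libraries. All 38 points lie below 0, Mybl1 farthest at -2.37 and Kif23 nearest at -0.07, and the 11 in red passed the threshold.

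The call count leaned on single libraries. It was 11 without responder replicate 3 (3.54% of all tested genes called lower) or 6 (6.16%), and 18 without responder replicate 4 (6.21%). Without non-responder replicate 1, 3 or 4 it was 8 (5.01%, 6.47% and 5.39%). It fell to 1 without responder replicate 1, responder replicate 2 or non-responder replicate 2, and to 2 without responder replicate 5. Calls over all genes fell in the same fits: 5.82% of tested genes were called lower with all libraries, and 1.45%, 1.04%, 0.229% and 1.02% in these 4. Mybl1 passed in all 10 of these fits, Kif20a in 7 and Aurka in 2, and every called gene but Mybl1 missed the threshold without non-responder replicate 2. The 8 called without non-responder replicate 1 were 7 of the 11 and Nek2. Over the 10 such fits the median log2 fold change of the 38 genes stayed between -1.50 and -1.07. With the number in the sample titles as a covariate edgeR called no mitosis gene, where 1 had an unadjusted p under 0.05, and it called 1 gene in all. All 38 fold changes then remained below 0, with a median of -0.70 and a median SE of 0.85. Responders carry the title numbers 1, 3, 9, 13, 16 and 29 and non-responders 26, 30, 32 and 37, so number and response can be told apart only in part. What the number stands for is not given.

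**Figure D2:**
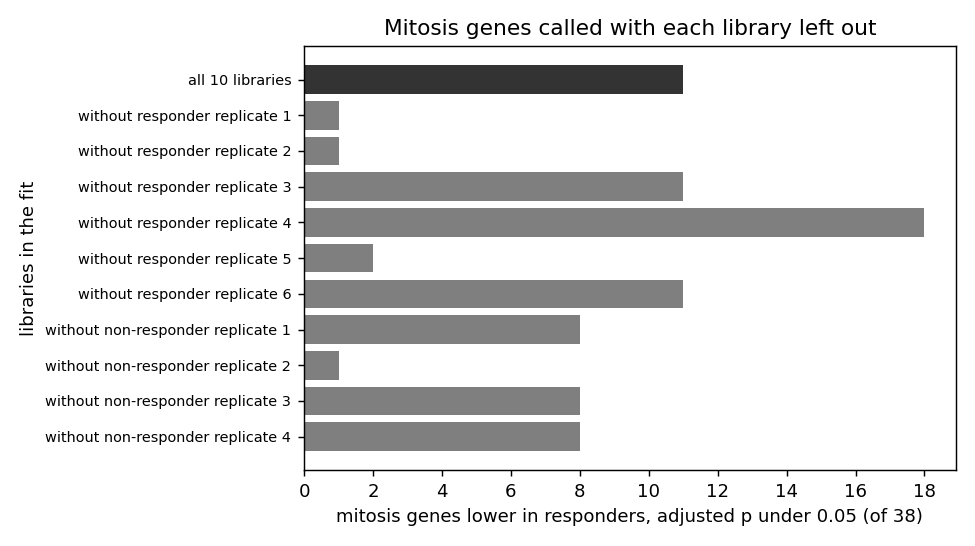
Number of the 38 mitosis genes called lower in responders (x axis; edgeR adjusted p under 0.05) in the fit with all 10 treated libraries and with each library left out in turn (y axis). The bar for all libraries stands at 11, and the others range from 1 to 18.

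Responder libraries differed widely among themselves. Summed over the 38 genes, responder replicates 1, 2 and 5 stood at 46.6, 73.2 and 44.1 CPM and replicates 3, 4 and 6 at 199.8, 175.0 and 138.2. The non-responders stood at 173.7, 312.5, 280.1 and 261.3 CPM for replicates 1 to 4, and the no-treatment library at 43.8. The sums averaged 112.8 ± 67.5 CPM over the 6 responders and 256.9 ± 59.4 over the 4 non-responders (mean ± SD). They overlapped, since responder replicates 3 and 4 exceeded non-responder replicate 1.

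The same order ran through single genes. In 36 of the 38, replicates 1, 2 and 5 were all below replicates 3, 4 and 6, and replicate 5 was below every non-responder in all 38. That division of the responders follows the sums of these same genes, so the count describes it and is no test of it. Replicate 3 was below every non-responder in 19 genes and replicate 4 in 17. The highest responder was replicate 3 in 21 genes, replicate 4 in 16 and replicate 6 in 1. Among non-responders, replicate 2 was highest in 25 genes and replicate 1 was lowest in 29. The shares of all tested genes that follow these orders were not counted. Every responder lay below every non-responder in 13 of the 38 genes, beside 5.66% of all tested genes. Leaving out a library can only keep or raise such a count. It came to 29 without non-responder replicate 1 (9.03% of all tested genes), to 16 without responder replicate 3 (6.98%), to 17 without responder replicate 4 (7.66%), and stayed at 13 without any 1 of the other 7. The heat map of levels by library shows this pattern, with the blue columns of responder replicates 1, 2 and 5 and the paler column of non-responder replicate 1.

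**Figure D3:**
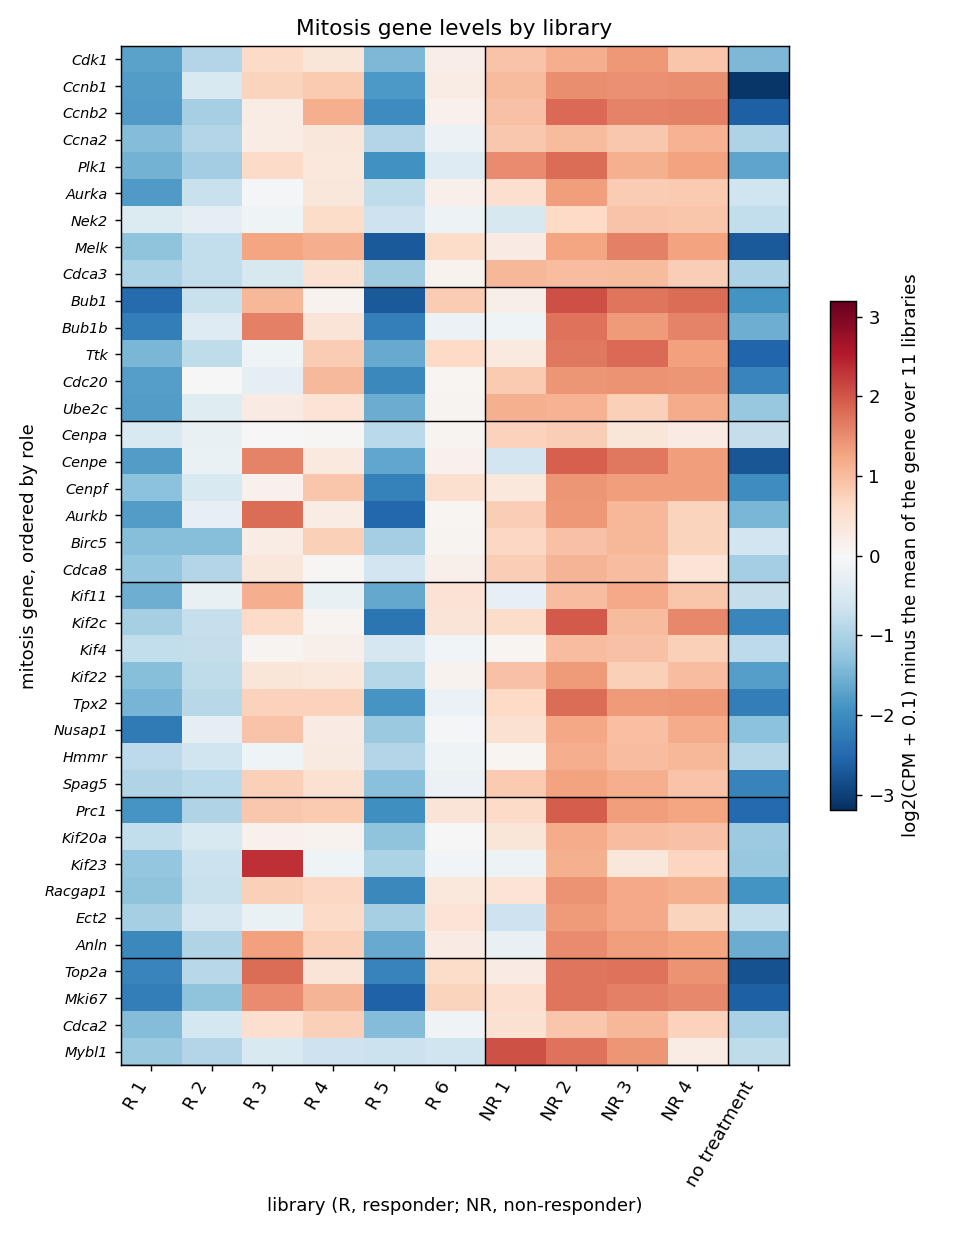
Level of each mitosis gene (rows, ordered by role) in each library (columns; R, responder; NR, non-responder), as log2(CPM + 0.1) minus the gene's mean over the 11 libraries. Responder replicates 1, 2 and 5 and the no-treatment library are blue in nearly every row, and Kif23 in responder replicate 3 is the darkest red cell.

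Afp, the fetal liver protein gene that many liver tumours express, divided the responders differently. It stood at 121.6 CPM in responder replicate 4 and 99.8 in replicate 6, and between 1.38 and 2.28 in the other responders, replicate 3 among them at 2.28. Non-responders stood at 116.4 to 381.2 CPM and the no-treatment library at 1.70. So the responder with the highest summed mitosis genes was among those with little Afp RNA. Over the fetal liver and liver tumour list of 9 genes (3 lower of 8 tested) the summed level was 6.89 to 248.6 CPM in responders and 321.9 to 880.1 in non-responders. Most of that sum was Afp and Gpc3, which averaged 246.1 and 240.5 CPM in non-responders. Neither was called (log2 fold change -2.69 and -2.80, adjusted p = 0.217 and 0.289, edgeR). The called genes were Igf2, Bex1 and Nqo1. Lin28b was not tested, with 0 reads in responders and 2 in non-responders. The neutrophil and myeloid progenitor list of 10 genes (2 lower of 4 tested) was at 1.19 to 4.04 CPM against 5.67 to 22.7. That difference was largely Prtn3, which averaged 0.486 CPM in responders and 9.53 in non-responders. The other called gene, Ltf, averaged 0.0823 and 0.444 CPM. The neutrophil genes S100a8 (log2 fold change 0.005) and S100a9 (-0.44) were not called, and the rest had too few reads to be tested. The erythroid list of 10 (2 lower of 9 tested) was at 111.4 to 202.3 against 172.8 to 339.1. T and NK cell genes (2 of 10 lower) overlapped, at 4.81 to 8.62 against 4.73 to 15.2 CPM. Of 10 hepatocyte markers 3 were higher in responders and 1, Apoa1, was lower, with a median log2 fold change of 0.62. The summed level was nevertheless lower in every responder than in any non-responder. Alb, the most abundant of the 10, averaged 56690 CPM in responders and 85760 in non-responders and was not called (adjusted p = 0.052, edgeR). Apoa1 averaged 6426 and 13900 CPM. Macrophage genes (0 of 8 called, median 0.20) were at 133.3 to 423.6 CPM in responders and 68.1 to 279.5 in non-responders, and endothelial genes (1 of 8 lower, median 0.29) at 236.6 to 401.5 against 124.4 to 354.8. In both lists the lowest value belonged to non-responder replicate 1, where the other non-responders had at least 257.9 and 312.2 CPM. No gene was called in the B and plasma cell list (3.94 to 17.4 against 4.43 to 11.7 CPM), the stellate and fibroblast list (242.2 to 433.1 against 347.4 to 519.7) or the cholangiocyte list (17.4 to 25.9 against 25.7 to 69.9). Beside these counts of called markers, 5.82% of all tested genes were called lower in responders and 4.11% higher. None of the 86 markers had 0 reads in all libraries. The part of these cell types in the levels of the mitosis genes was not tested, and in whole tissue fewer cells of a type and less RNA per cell cannot be told apart.

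Among the kinases, cyclins and regulators of mitotic entry 4 of 9 genes were lower in responders (median log2 fold change -1.34). Plk1 (ENSMUSG00000030867, mm10 chr7:122159437-122169875) encodes the polo-like kinase that drives entry, centrosome maturation and cytokinesis. Its level in responders was 0.243 CPM at the lowest, 0.700 at the median and 1.90 at the highest, and 3.66, 4.49, 2.82 and 3.12 in non-responder replicates 1 to 4. Every non-responder was above every responder, and the no-treatment library (0.307 CPM) lay at the low end of the responders. The log2 fold change was -1.95 ± 0.48 (SE, adjusted p = 0.0308, edgeR).

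Cdca3 (ENSMUSG00000023505, chr6:124829547-124833701), an F-box protein that triggers degradation of the kinase WEE1 at mitotic entry, was at 1.84, 2.63 and 5.90 CPM (lowest, median and highest responder). Non-responders were close together at 8.82, 8.35, 8.42 and 7.21 CPM, and no responder reached them. Its log2 fold change was -1.35 ± 0.30 (SE, adjusted p = 0.0238, edgeR). Ccna2 encodes cyclin A, the partner of CDK kinases from S phase to early mitosis, and had 2.50, 4.61 and 8.63 CPM in responders against 12.2, 13.5, 12.2 and 14.6 in non-responders. The groups did not overlap, and the log2 fold change was -1.32 ± 0.31 (SE, adjusted p = 0.0278, edgeR). Aurka, the centrosomal Aurora kinase, had a log2 fold change of -1.27 ± 0.36 (SE, adjusted p = 0.0467, edgeR). Its highest responder (3.48 CPM) lay just under its lowest non-responder (3.95 CPM).

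Cyclin B and its kinase, the core of the mitotic switch, did not pass the test. Cdk1 was at 0.968, 2.85 and 5.27 CPM in responders (lowest, median, highest) and at 6.53, 7.70, 9.03 and 6.36 in non-responders, and Ccnb1 reached 1.77 CPM in responders against 1.99 at the lowest in non-responders. In both genes the groups did not overlap, yet the adjusted p was 0.0709 for Cdk1 (log2 fold change -1.34 ± 0.43, SE) and 0.0868 for Ccnb1 (-1.51 ± 0.52), by edgeR. Ccnb2, the Golgi-associated cyclin B, was highest among responders in replicate 4 (5.74 CPM), above non-responder replicate 1 (4.91 CPM), and had a log2 fold change of -1.70 ± 0.55 (SE, adjusted p = 0.0735, edgeR). The table also lists a Ccnb2 pseudogene, so reads of the pair could be split. Nek2, a centrosome kinase, had -0.73 (adjusted p = 0.129, edgeR). Melk, a kinase of proliferating cells, had -1.01 (adjusted p = 0.415, edgeR) and 0 reads in responder replicate 5 and in the no-treatment library.

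None of the 5 checkpoint and anaphase genes passed, although their median log2 fold change of -1.49 was the largest of any role. Ube2c, the ubiquitin-conjugating enzyme of the anaphase-promoting complex, came nearest, at -1.37 ± 0.41 (SE, adjusted p = 0.0541, edgeR). Its highest responder had 3.22 CPM and its lowest non-responder 4.05, so the groups did not overlap. Cdc20, the activator of that complex, had -1.49 (adjusted p = 0.0797, edgeR) and overlapped because responder replicate 4 (5.09 CPM) exceeded non-responder replicate 1 (4.43 CPM). The checkpoint kinases Ttk and Bub1 had -1.64 and -1.69 (adjusted p = 0.0672 and 0.158, edgeR), and the checkpoint protein gene Bub1b -1.24 (adjusted p = 0.284, edgeR). Bub1 was as low as 0.0540 CPM in responder replicate 5, where it had 2 reads, and 1.97 in replicate 3, above the 1.03 of non-responder replicate 1.

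Of 6 centromere and chromosomal passenger genes 2 were lower in responders (median -1.13). Cenpa (ENSMUSG00000029177, chr5:30666777-30674827) encodes the histone H3 variant that marks centromeres. It was one of the more abundant members and the one with the smallest called change, at 3.78, 6.46 and 7.42 CPM in responders against 11.7, 12.1, 9.11 and 8.36 in non-responders. The groups were separate, with a log2 fold change of -0.77 ± 0.20 (SE, adjusted p = 0.0350, edgeR). Cdca8, borealin of the passenger complex, was at 0.887, 1.83 and 2.85 CPM against 3.91, 4.84, 4.52 and 3.02, with a log2 fold change of -1.15 ± 0.32 (SE, adjusted p = 0.0429, edgeR). Its partners in the complex did not pass: the survivin gene Birc5 had -1.10 (adjusted p = 0.107, edgeR) and the kinase gene Aurkb -0.81 (adjusted p = 0.483, edgeR). Aurkb was higher in responder replicate 3 (3.99 CPM) than in any other library, and the next responder had 1.29 CPM. The kinetochore motor gene Cenpe and the kinetochore protein gene Cenpf had -1.19 and -1.27 and missed the threshold (adjusted p = 0.269 and 0.122, edgeR). Cenpe in non-responder replicate 1 was 1.22 CPM, below 4 responders, whereas the other non-responders had 5.02 to 7.45.

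Spindle motors and microtubule proteins held 3 called genes of 8 (median -1.24). Hmmr, a microtubule-bound protein of the spindle pole, was at 2.27, 3.45 and 5.47 CPM in responders and 4.61, 10.2, 8.93 and 9.43 in non-responders. It passed with a log2 fold change of -1.24 ± 0.28 (SE, adjusted p = 0.0242, edgeR) although responder replicate 4 lay above non-responder replicate 1. Kif22, a chromokinesin that moves chromosome arms, did not overlap (highest responder 2.68 CPM, lowest non-responder 3.52) and had -1.30 ± 0.35 (SE, adjusted p = 0.0387, edgeR). Kif4, the other chromokinesin, had -1.02 ± 0.26 (SE, adjusted p = 0.0329, edgeR) and overlapped in non-responder replicate 1 (3.14 CPM, against 3.38 in responder replicate 4). Kif22 and Kif4 each have a pseudogene in the table that could take some of their reads. Spag5, a spindle pole protein, was separate between groups and missed the threshold (-1.25, adjusted p = 0.0654, edgeR), as did the microtubule depolymerase Kif2c (-1.64, adjusted p = 0.0622, edgeR) and the Aurora A activator Tpx2 (-1.56, adjusted p = 0.0703, edgeR). Nusap1, which bundles spindle microtubules, had -1.16 (adjusted p = 0.136, edgeR). Kif11, the motor that separates the spindle poles, had -0.82 (adjusted p = 0.341, edgeR).

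In the central spindle and cytokinesis group 1 of 6 genes passed (median -1.11). Kif20a, the motor that carries the passenger complex to the central spindle, was at 2.62, 5.60 and 7.22 CPM in responders and 8.71, 15.2, 13.1 and 12.6 in non-responders. The groups did not overlap, and the log2 fold change was -1.22 ± 0.27 (SE, adjusted p = 0.0238, edgeR). The microtubule bundler Prc1 (-1.40), the cytokinesis regulators Racgap1 (-1.19) and Ect2 (-1.02) and the furrow protein gene Anln (-1.02) had edgeR adjusted p between 0.139 and 0.323. Kif23, the motor of the centralspindlin complex with Racgap1, had the smallest change of all, -0.07 ± 0.70 (SE, adjusted p = 0.963, edgeR).

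That value of Kif23 depended on 1 library. Its level in responder replicate 3 was 7.34 CPM, where the other responders lay between 0.524 and 1.27 and the non-responders at 1.22, 3.10, 1.77 and 2.27. Reads of replicate 3 fell in 23 of 23 Kif23 exons, and scaled reads were highest there in 21 of the 23. Without that library the log2 fold change of Kif23 was -1.24, beside a median of -1.50 for the 38 genes in that fit. Its partner Racgap1 stood at 4.58 CPM in replicate 3, beside 4.29 in replicate 4.

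In the chromosome structure and transcription group 1 of 4 genes was called (median -1.13). Mybl1 (ENSMUSG00000025912, chr1:9667415-9700209) encodes A-MYB, a MYB transcription factor known from male meiosis and related to B-MYB. Responders were tightly grouped at 0.524, 0.794 and 0.926 CPM (lowest, median, highest), whereas non-responders were spread over 5.72, 4.65, 3.72 and 1.60. No values overlapped, the no-treatment library had 0.716 CPM, and the log2 fold change of -2.37 ± 0.32 (SE, adjusted p = 0.0105, edgeR) was the largest of the 38. In the fits that left out 1 library each, the adjusted p of Mybl1 was at most 0.0456. It departed from the common order of libraries: non-responder replicate 1, the lowest non-responder for 29 members, was the highest for Mybl1.

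The most counted members did not pass. Mki67, the gene of the Ki-67 antigen that coats mitotic chromosomes, was at 1.86, 12.0 and 33.8 CPM in responders and at 17.1, 39.0, 36.3 and 34.7 in non-responders. Responder replicates 3, 4 and 6 all exceeded non-responder replicate 1, and the log2 fold change was -1.13 ± 0.75 (SE, adjusted p = 0.365, edgeR). Top2a, the topoisomerase that untangles sister chromatids, was highest of all libraries in responder replicate 3 (24.1 CPM) and stood at 8.31, 23.1, 23.3 and 18.9 in non-responders. Its log2 fold change was -1.12 ± 0.70 (SE, adjusted p = 0.336, edgeR). Cdca2, a phosphatase-targeting chromatin protein gene, had -0.98 (adjusted p = 0.158, edgeR). The plots of 6 genes by library set these spreads side by side.

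**Figure D4:**
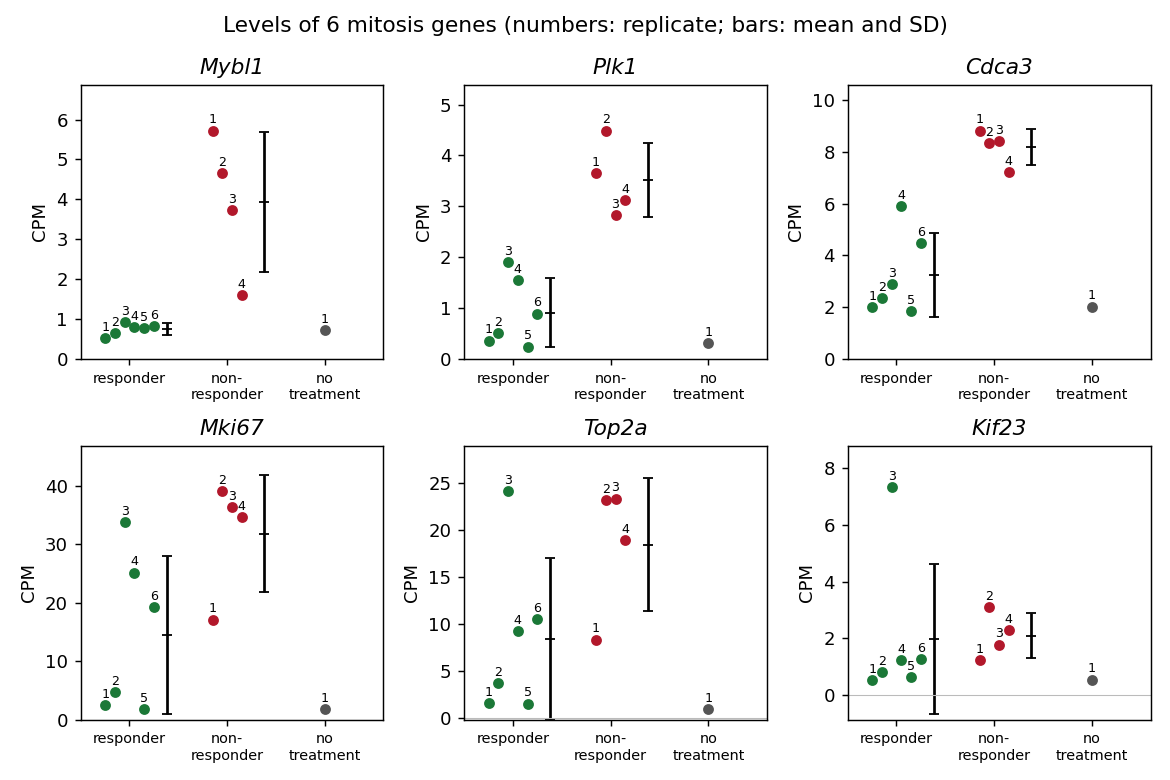
CPM (y axes) of 6 mitosis genes in each library, with replicate numbers beside the points and the mean with SD of each treated group as bars. Mybl1, Plk1 and Cdca3 do not overlap between responders and non-responders, whereas responder replicate 3 lies among or above the non-responders for Mki67, Top2a and Kif23.

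Per gene length the order of members differed from that by counts. By the authors' RPKM, averaged over the non-responders, Ccnb2 was highest (3.38), followed by Cenpa (2.96), Ccna2 (2.67), Cdc20 and Kif20a (both 2.32) and Mki67 (2.23). Melk was lowest at 0.319 RPKM. Plk1 stood at 1.15 RPKM and Mybl1, with the largest fold change, at 0.524.

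Exon bases of 9 of the 38 mitosis genes are shared with another gene, and as the strand setting of the counting is not given, reads there can belong to either. The 4 largest shares are given here. Kif20a shares 33.17% of its exon bases with Cdc23, a subunit gene of the anaphase-promoting complex, Ube2c 22.77% with Tnnc2, Kif4 15.09% with Pdzd11 and Ccna2 14.59% with Exosc9, an RNA exosome subunit gene. Tnnc2 had 3 reads over all libraries. The other 5 genes (Nek2, Cdca8, Nusap1, Cdc20 and Top2a) share between 1.35% and 6.6%. Exosc9 was itself lower in responders (log2 fold change -0.44, adjusted p = 0.0350, edgeR), whereas Cdc23 had -0.29 (adjusted p = 0.0817, edgeR) and Pdzd11 -0.30 (adjusted p = 0.182, edgeR). All genes were next counted only over exons that overlap no other gene, as a sum of counts per exon. Such a sum is not the same measure as the gene count: for Ube2c it held 1440 reads over all libraries, against 1123 for the gene. In that fit edgeR called 9 mitosis genes lower, beside 5.75% of all tested genes. Kif4 passed there (-1.47, adjusted p = 0.0440), and Ccna2 and Kif20a no longer did, with log2 fold changes of -1.42 (adjusted p = 0.235) and -1.53 (adjusted p = 0.0787). In those exons non-responder replicate 1 fell to 3.02 CPM for Ccna2, below responder replicates 3 (5.29), 4 (5.47) and 6 (3.45). For Kif20a it fell to 2.73, below responder replicates 3 (4.44), 4 (5.36) and 6 (3.37). For Kif4 it stood at 2.101, also below responder replicates 3 (2.705), 4 (2.143) and 6 (2.183). Non-responder replicate 1 is the library with the 3′ coverage index of 1.17. Its part in the lost calls was not tested. The fold changes of Ccna2 and Kif20a were further from 0 over these exons than over the whole gene. The calls of Ccna2 and Kif20a are therefore uncertain, and the plot of shared exons traces each library.

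**Figure D5:**
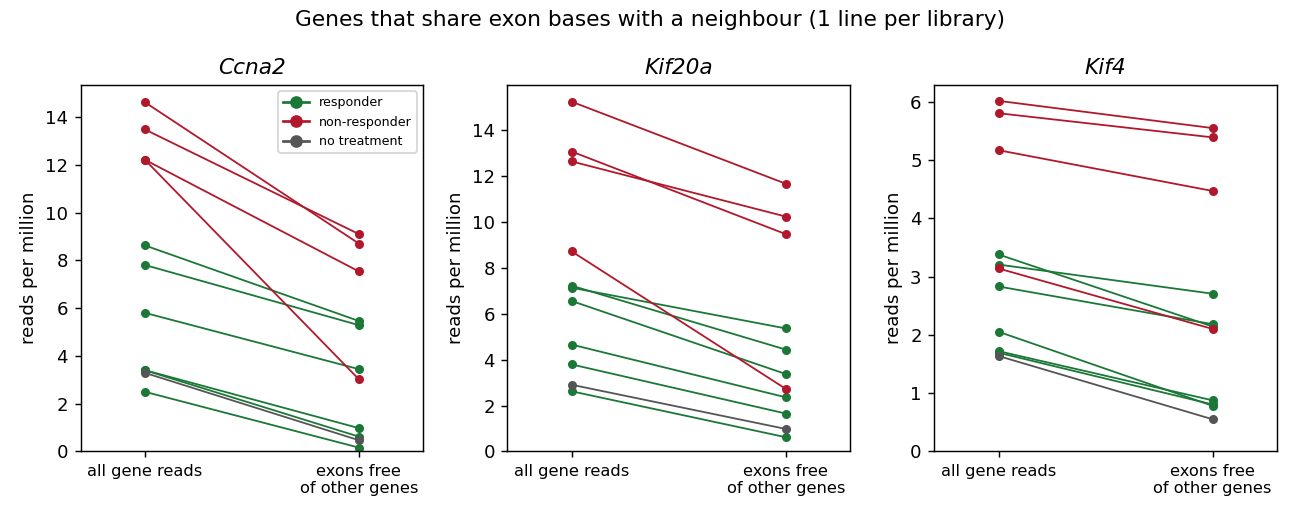
CPM (y axes) of Ccna2, Kif20a and Kif4 in each library, over all reads of the gene and over exons free of other genes, with 1 line per library. The value over free exons is a sum of counts per exon and not the same measure as the gene count. The line of non-responder replicate 1 drops in Ccna2 from 12.2 to 3.02 and crosses responder lines.

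The no-treatment library resembled the lower responders in its levels. It was below every non-responder in all 38 genes, below the median responder in all 38 and within the range of the responders in 25. In the other 13 it was below all treated libraries, among them Ccnb1 (0.0205 CPM, 1 read), Top2a (0.921), Mki67 (1.84) and Kif4 (1.64). As 1 library it gives no test, and the shares of all tested genes in these places were not counted.

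Other genes of the division machinery were taken from 7 pathway lists of 161 genes, of which 160 were tested, 17 were lower in responders and 2 were higher. Over all tested genes 5.82% were called lower and 4.11% higher, and the median log2 fold change was -0.02. Among 38 other mitotic genes 5 were lower (median -1.22): Ccnf (-1.24), a cyclin of a ubiquitin ligase, Gtse1 (-1.68), a regulator of microtubules and p53, and Kifc1 (-1.41), a minus-end motor, had the smallest p. Of 32 further kinetochore and centromere genes 6 were lower (median -0.78), led by Cenpm (-1.39), Cenpl (-0.69) and Hjurp (-0.74), the chaperone that deposits CENP-A. Condensin and cohesin genes gave 1 of 17 (median -0.38), the securin gene Pttg1 (-1.35), which restrains separase. The anaphase-promoting complex gave 1 of 16 (median -0.10), Anapc4 (-0.40). Of 32 G1 and S phase genes 1 was lower (median -0.38), the chromatin assembly gene Chaf1a (-0.90). The single calls of the condensin and cohesin, anaphase-promoting complex and G1 and S phase lists lay near or below the share over all tested genes.

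CDK inhibitors, which hold back the cell cycle, gave 3 lower of 6 tested (median -0.97). Cdkn1a, the p21 gene, averaged 3.73 ± 3.28 CPM over the 6 responders and 23.1 ± 9.74 over the 4 non-responders (SD), which gave -2.65 on the log2 scale (adjusted p = 0.0319, edgeR). Cdkn2c, an inhibitor of CDK4 and CDK6, and Cdkn1c, the p57 gene at -0.93, were the others called.

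Of 19 MuvB, E2F and FOXM1 regulator genes none was called lower, 2 were higher and the median log2 fold change was -0.04. E2f8, an atypical repressor of the E2F family, ranged from 19.2 to 43.6 CPM in responders and from 9.93 to 14.2 in non-responders, which gave 1.34 ± 0.23 (SE) on the log2 scale (adjusted p = 0.0149, edgeR). Every responder was above every non-responder, beside 5.6% of all tested genes. Rbbp4, a histone-binding subunit of MuvB, had 0.71 (adjusted p = 0.0457, edgeR). Foxm1 and Mybl2, named for their role and outside the naming rule, had fold changes of -1.06 ± 0.51 and -1.15 ± 0.40 (SE) that missed the threshold (adjusted p = 0.200 and 0.0886, edgeR). Among the 14 called pathway genes named here, E2f8 and Cenpl passed in each of the 10 fits with 1 library left out, and the other 12 missed the threshold without non-responder replicate 2.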

How the data were processed

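RNA from mouse liver was sequenced as 11 libraries. The authors deposited a raw count and an RPKM value per gene and per exon, per the file headers. The RPKM per gene was used only to order genes by length-scaled level. The submitters' processing notes name mm10 and FastQC. The aligner, counter, annotation and strandedness: not given in the sources used here.

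Libraries were grouped by response label. Within a group, all 21 pairs differed by more than sampling noise (a median chi-square at least 4.28 times that of counting alone). Responders (6) and non-responders (4) were tested against each other in R 4.3.3 by edgeR 4.0.16 (filterByExpr, TMM, robust quasi-likelihood F test, Benjamini-Hochberg over 17610 genes, threshold 0.05), and SE is the fold change over the root of F. CPM is TMM-scaled over 11 libraries. Steps were tested on simulated data. No molecular identifiers are named, so reads may not be independent molecules.

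Members and lists were chosen with earlier results of these data known. Named were all members, up to 3 called genes of each list by p, exon-sharing genes and Afp. Promoters were to be those of called members with a homology region match and the smallest p. Where the 150 bases overlapped an annotated exon none was printed, and Ccnb2 and Top2a were taken instead after their values were seen. Alternatives were other scalings, filters and thresholds, DESeq2 1.42.0, limma-voom (limma 3.58.1) with and without quality weights, covariates, exon sums, and each library left out.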

Additional observations from a re-analysis of the deposited data

Results flagged for a closer look

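Of 76 groups of values tested (38 genes, responders and non-responders apart, on log2 CPM), 8 held a library far from the others, and chance flags about 1 in 20 groups. The value given is the gap to the nearest library over the whole range of the group. Non-responder replicate 1, the library whose reads lay toward 3′ ends, was far below the other non-responders in 6 genes: Cdc20 (0.9253), Cenpf (0.9158), Ccnb1 (0.9147), Anln (0.8579), Mki67 (0.8569) and Hmmr (0.8349). For Cenpf it had 4.43 CPM where the next had 8.84, and for Anln 1.85 where the next had 5.37. Non-responder replicate 3 was the low one for Ube2c (0.8334), with 4.05 CPM against 5.14. Responder replicate 3 was the high one for Kif23 (0.6767), with 7.34 CPM against 1.27.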

How the results depend on the processing

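Under RLE or upper quartile scaling, a CPM floor of 1 in 4 libraries, or the no-treatment library as its own group, edgeR called 11 mitosis genes lower, as in the report. Library size alone (5.44% of all tested genes lower) or no filter (2.51%) gave 9, and the 3′ coverage index as a covariate gave 8 (4.98%). DESeq2 called 20 (9.43% of all tested genes lower, against 5.82% in the report), limma-voom 21 (6.27%), limma-voom with quality weights 36 (11.5%), an adjusted p of 0.1 gave 20 (10.3%), and the title number as a covariate gave 0 (0.00568%). Leaving out 1 library gave 1 to 18 (0.229% to 6.47% of all tested genes lower). None was called higher in any of these. The median log2 fold change ran from -1.75 (voom with quality weights) to -0.70 (title number). Pathway genes called lower (17 in the report) numbered 10 with no filter, 40 with DESeq2, 30 with voom, 84 with quality weights, 42 at 0.1, 0 with the title number and 1 to 22 with a library left out. In each of these settings but the last, the share of all tested genes called lower, given above, moved the same way. Those called higher (2 in the report) numbered 1 with no filter, with the 3′ index or over free exons, 4 with DESeq2 or at 0.1, 5 with quality weights, 0 with the title number and 1 to 3 with a library left out. Kif23 changed sign in 6 of 10 leave-one-out fits, with a range of -1.24 to 0.20. Of 836 member values under 22 alternatives 705 kept direction and side of the threshold, 71 lost it, 54 gained it and 6 reversed. The cause of these shifts was not tested. Members without overlap between groups (13 in the report) numbered 13 to 29 with a library left out, an alternative chosen after seeing the data. Melk, Bub1, Aurkb and Ccnb1 had 5 or fewer reads in at least 1 treated library. No paired analysis was possible because the labels give no shared replicate numbers.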
